A study of Mus musculus with 4 samples.

Results

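The spermatogenic glycolytic enzymes described here are 10 genes of steps from glucose to lactate, without the pyruvate kinase step. In the order of the pathway they are Hk1, Gpi1, Pfkp, Aldoa, Tpi1, Gapdhs, Pgk2, Pgam2, Eno4 and Ldhc. They were chosen by gene symbol, and all 10 were found among 17934 genes, with 17 listed transcripts. The libraries hold testis RNA from male C57BL/6 mice, 2 libraries from mice with Tas1r3 (WT) and 2 from mice without it (KO). Mice of both genotypes were fed a western diet for 18 weeks, so no library came from another diet. Tas1r3 encodes a taste receptor subunit used in sensing both sweet and umami compounds. The labels name the knockout without its allele design, and leave it unsaid whether libraries of a genotype stand for different animals. P-values therefore measure the spread between libraries, which may be technical. Values are CPM, the reads of a transcript per 1000000 reads assigned to any listed transcript, and a gene's value is the sum over its transcripts.

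Glycolysis splits glucose to pyruvate with a net yield of ATP, and lactate dehydrogenase then regenerates the cofactor that keeps the pathway running. In mouse sperm much of it takes place in the tail, where several of the enzymes are anchored to the fibrous sheath. Male germ cells use their own forms of several enzymes, encoded by retrogenes, by duplicated genes or by germ cell transcripts of widely expressed genes. Pgk2 is an autosomal retrogene of the X-linked Pgk1, which is silenced with the X chromosome in meiosis. Mice lacking Gapdhs, Pgk2 or Ldhc have poor sperm motility and reduced or lost male fertility.

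The members lie on 7 chromosomes, with 4 of them (Gapdhs, Gpi1, Ldhc and Aldoa) on chromosome 7 and 8 of 10 on the minus strand. Ldhc, at 46510687 to 46527568 on mm39, begins 5635 bases after the end of Ldha, the gene of the muscle type subunit, on the same strand. Pgk2, at chromosome 17, 40517909 to 40519500, is the only member whose span equals its transcript length, as a gene without introns has. The files list more than 1 transcript for 5 members, and transcripts of Gapdhs, Hk1, Ldhc and Aldoa begin at different sites. The 150 bases before the start are shown for Pgk2 and for both starts of Gapdhs and Hk1, because the division of reads between these starts is described further on. Capitals mark matches, on either strand, of the letters TGACGTCA (the cAMP response element), TGACATCA (a variant of it, read as TGATGTCA on the other strand), CCAAT, the TATA box letters TATAAA and the GC box letters GGGCGG, and no matches overlap in these windows. TGACATCA was added to the search after the sequences had been read.
Gapdhs, upstream start: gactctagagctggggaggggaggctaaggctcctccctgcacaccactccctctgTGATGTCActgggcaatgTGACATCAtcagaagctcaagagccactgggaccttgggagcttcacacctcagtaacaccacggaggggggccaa
Gapdhs, downstream start: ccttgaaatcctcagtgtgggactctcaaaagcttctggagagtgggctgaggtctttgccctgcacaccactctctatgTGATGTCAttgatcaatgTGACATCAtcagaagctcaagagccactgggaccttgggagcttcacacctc
Hk1, upstream start: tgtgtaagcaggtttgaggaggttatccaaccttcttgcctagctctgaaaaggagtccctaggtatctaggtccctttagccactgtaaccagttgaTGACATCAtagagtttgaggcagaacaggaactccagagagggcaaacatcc
Hk1, downstream start: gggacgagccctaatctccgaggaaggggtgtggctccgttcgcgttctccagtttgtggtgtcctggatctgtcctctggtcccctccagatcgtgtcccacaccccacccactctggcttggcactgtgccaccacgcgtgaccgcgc
Pgk2: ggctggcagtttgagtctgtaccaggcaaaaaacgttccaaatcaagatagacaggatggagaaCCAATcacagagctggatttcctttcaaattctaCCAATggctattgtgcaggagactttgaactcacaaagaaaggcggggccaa

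These windows come from RefSeq on GRCm38.p6, a build older than that of the expression tables, and all lie on the minus strand. On that build they span chr7:30743682-30743831 and chr7:30739408-30739557 for Gapdhs, chr10:62379909-62380058 and chr10:62340422-62340571 for Hk1, and chr17:40208610-40208759 for Pgk2. All 15 member start sites of the files had a window in the RefSeq table, and the distances between starts of a gene were the same on both builds. The Gapdhs starts are 4274 bases apart, and the DNA around them is a near copy. Windows of 300 bases around both starts aligned over 279 columns with 248 identical (88.9%), including an identical run of 107 bases. Both copies hold TGACATCA in each orientation, at 94 and 76 bases before the upstream start and at 70 and 52 bases before the downstream start. The upstream Hk1 window holds it once, 52 bases before the start, and the downstream Hk1 window holds none of the motifs. TGACATCA occurs in 3 of the 15 member windows and in 2.32% of 32817 such windows over the RefSeq table, and at least 2 matches occur in 0.152% of them. The 3 include both near copies of Gapdhs. Because this motif was chosen after these sequences had been read, the shares are a description and no test. Pgk2 has CCAAT at 86 and 52 bases before its start, and 4 of 15 member windows and 24.5% of all windows hold that motif. GGGCGG occurs in 6 member windows and 28.6% of all windows. The windows of the downstream Aldoa starts share 74 bases that hold a CCAAT and a GGGCGG match, so these matches count in both windows. TGACGTCA and TATAAA occur in 0 of the 15, and in 1.36% and 7.58% of all windows. A match describes letters, not binding.

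An estimated 1719355 and 1807697 reads were assigned in the WT pair against 748637 and 597937 in the KO pair, so depth differs between genotypes by a factor of 2.62. Tas1r3 had 13.8 and 20.5 CPM in WT against 1.34 and 0 in KO, in the direction the labels call for (log2 fold change -3.54, SE 0.61; limma, BH-adjusted p = 0.627). That difference passed with the replicate block or with either KO library left out, and in no other alternative. Markers of the labelled tissue were present in every library. The 9 pachytene spermatocyte markers summed to 2141 and 2392 CPM in WT against 2656 and 2166 in KO. The 9 round spermatid markers summed to 2658 and 2503 CPM in WT against 2502 and 2946 in KO. The 10 elongating spermatid markers, led by the protamine and transition protein genes, summed to 38626 and 38734 CPM in WT and to 33939 and 44988 CPM in KO. None of these germ cell markers was at 0 in any library. Both spermatid sums were lowest in KO replicate 1 and highest in KO replicate 2. For round spermatids the lowest sum lay just below that of WT replicate 2 (2502 against 2503 CPM). In bulk testis, fewer cells of a type and less RNA per cell cannot be told apart. Of markers of other cells, the 9 for Sertoli cells summed to 1413 to 1686 CPM and overlapped between genotypes. Sums of some other sets did not overlap. The 7 Leydig cell markers summed to 1713 and 1838 CPM in WT against 1574 and 1606 in KO. Singly, 2 of them did not overlap. Insl3, which made up most of each sum, was lower in KO (1517 and 1464 CPM against 1234 and 1278). Lhcgr was higher (2.77 and 5.74 CPM against 6.68 and 8.38). The sums of the 4 myoid and smooth muscle markers (92.5 and 102 in WT, 76.3 and 75.3 in KO) were also lower in KO. So were those of the 5 endothelial markers (47.6 and 57.0 in WT, 40.2 and 20.4 in KO, with Pecam1 at 0 in KO replicate 2). Singly, 3 of these 5 did not overlap, Flt1 and Sox17 lower in KO and Kdr higher. The sum of the 7 measured spermatogonium markers (118 and 113 in WT, 148 and 153 in KO) was higher in KO. Singly, 4 of them did not overlap, Stra8, Dmrt1 and Uchl1 higher in KO and Gfra1 lower. Among all genes 34.3% did not overlap between genotypes. The part of these sets in the lower Gpi1 and Aldoa values of KO, given further on, was not tested. The 3 measured skeletal muscle markers, relevant to Pgam2 and Aldoa, summed to 4.38 to 11.5 CPM, and Acta1 was at 0 in KO replicate 2. Single WT libraries stood out in other sets. Crisp1, the only measured epididymis marker, had 40.7 CPM in WT replicate 1 and 0 in every other library. The 5 red blood cell markers summed to 47.8 and 186 CPM in WT against 35.8 and 53.9 in KO. The part of these sets in the member values was not tested.

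Together the 10 members took 1.10% and 1.11% of all assigned reads in WT, against 1.07% and 1.09% in KO. No member passed the test between genotypes. By limma on log2(CPM + 1), with Benjamini-Hochberg adjustment over all 17654 genes tested, 0 of 10 members were called at an adjusted p under 0.05, against 0.00566% of all genes. That share is 1 gene, Ptchd3, which is no member and is named here after its values were seen. At an unadjusted p under 0.05 there were also 0 members, against 4.33% of all genes. All 10 passed the filter of a mean of at least 1 CPM, with mean levels from 95.1 to 3634 CPM. Of the members, 5 had a positive and 5 a negative log2 fold change (KO minus WT), from -0.16 to 0.20, with a median of -0.0026. The median over all genes tested was -0.04. The median size of the change, without its sign, was 0.04 for members, 0.25 for all genes and 0.10 for the 2274 genes within the range of the members' mean CPM. Genes were not matched to members in level within that range. These medians describe the list and are no test of it. The genotypes did not overlap for 2 of 10 members, both lower in KO, against 34.3% of all genes in either direction and 19.2% lower in KO.

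**Figure D1:**
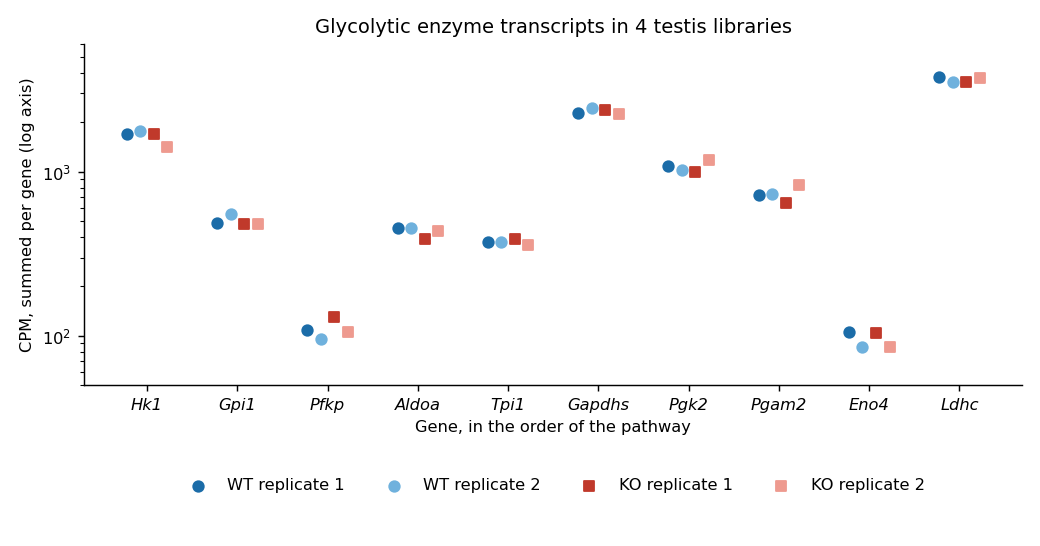
CPM summed per gene (log axis) for the 10 members in the order of the pathway; circles are WT and squares KO libraries, 2 each, with 1 point per library. Ldhc and Gapdhs stand highest, Pfkp and Eno4 lowest, and WT and KO points overlap for every gene except Gpi1 and Aldoa.

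The hexose steps open the pathway. Hk1, at chromosome 10, 62104634 to 62215687, encodes hexokinase 1, which traps glucose as glucose 6-phosphate. It had 1686 and 1781 CPM in the WT pair (replicates 1 and 2, in this order throughout) against 1702 and 1413 in the KO pair. KO replicate 2 was the lowest library, and KO replicate 1 lay between the WT libraries. On the log2 scale KO minus WT was -0.16 (SE 0.13, 95% interval -0.45 to 0.13), which did not pass (limma, BH-adjusted p = 0.950). Without KO replicate 1 it was -0.29 and passed (limma, BH-adjusted p = 0.0487), in a fit that takes its spread from the WT pair alone and calls 954 genes. No other alternative called it.

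Gpi1, at chromosome 7, 33900752 to 33929761, encodes the isomerase that turns glucose 6-phosphate into fructose 6-phosphate. It had 487 and 549 CPM in WT against 481 and 479.8 in KO. Both KO values lay below both WT values by a small margin in the case of WT replicate 1. Its log2 fold change of -0.11 (SE 0.13, 95% interval -0.39 to 0.18) did not pass (limma, BH-adjusted p = 0.951). Pfkp, at chromosome 13, 6629910 to 6698807, encodes the platelet type subunit of phosphofructokinase, the committed step of glycolysis. It had 109 and 96.0 CPM in WT against 131 and 105 in KO. The genotypes overlapped, and only 188 and 174 reads in WT and 98 and 63 in KO stood behind these values. Its log2 fold change of 0.20 (SE 0.18, 95% interval -0.21 to 0.60) was the highest of the members and did not pass (limma, BH-adjusted p = 0.950).

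Aldoa, at chromosome 7, 126394406 to 126399619, encodes aldolase A, which splits fructose 1,6-bisphosphate into triose phosphates. It had 454 and 453 CPM in WT against 389.99 and 432 in KO. The WT pair lay close together and the KO pair further apart, with both KO values below WT. The difference, a log2 fold change of -0.14 (SE 0.13, 95% interval -0.43 to 0.15), did not pass (limma, BH-adjusted p = 0.950). Tpi1, at chromosome 6, 124787551 to 124791121, encodes triosephosphate isomerase, which interconverts the triose phosphates. It had 371 and 372 CPM in WT against 389.9 and 359.6 in KO, so the KO values enclosed the WT values. Its log2 fold change was 0.01 (95% interval -0.28 to 0.30; limma, BH-adjusted p = 0.996).

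The germ cell forms of the enzymes that follow overlapped between the genotypes. Gapdhs, at chromosome 7, 30429204 to 30443106, encodes the sperm glyceraldehyde-3-phosphate dehydrogenase, which is bound to the fibrous sheath. It had 2279.9 and 2439 CPM in WT against 2382 and 2232.5 in KO. WT values enclosed 1 KO value and KO replicate 2 was lowest, and the log2 fold change was -0.03 (SE 0.11, 95% interval -0.29 to 0.22; limma, BH-adjusted p = 0.984). Pgk2 encodes the phosphoglycerate kinase of spermatocytes and spermatids, which yields ATP. It had 1079.9 and 1026 CPM in WT against 1000.5 and 1186 in KO. The KO libraries were the lowest and the highest of the 4, with a log2 fold change of 0.05 (SE 0.13, 95% interval -0.24 to 0.34; limma, BH-adjusted p = 0.979). The summed elongating spermatid markers showed the same order, lowest in KO replicate 1 (33939 CPM) and highest in KO replicate 2 (44988 CPM). Of these markers only Prm1, Prm2 and Tnp1 followed that order singly, and Odf1 and Odf2 were lowest in KO replicate 2. Their part in the Pgk2 values was not tested.

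Pgam2, at chromosome 11, 5751637 to 5753796, encodes the muscle type phosphoglycerate mutase, which is also made in germ cells. It had 725 and 731 CPM in WT against 648 and 830.5 in KO. The KO libraries again lay at both ends, in the order of the summed spermatid markers, whose part was not tested. Of the round spermatid markers only Tssk1, Tssk2 and Catsper3 followed that order singly, and Acr was highest in KO replicate 1. For Pgam2 the log2 fold change was 0.01 (SE 0.14, 95% interval -0.31 to 0.33, limma, BH-adjusted p = 0.996). Eno4, at chromosome 19, 58931857 to 58959853, encodes an enolase-related protein needed for sperm enolase activity and fibrous sheath structure in mice. It had 105 and 85.0 CPM in WT against 105 and 85.9 in KO, from 181 and 154 reads in WT and 78 and 51 in KO. For KO replicate 2 the 95% exact Poisson interval of its reads ran from 63.5 to 112 CPM, which covers all 4 values (counting error only). The log2 fold change was 0.0051 (SE 0.19, 95% interval -0.42 to 0.43; limma, BH-adjusted p = 0.999).

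Ldhc encodes the testis subunit of lactate dehydrogenase, made from meiosis onwards. It had 3750.3 and 3543 CPM in WT against 3509 and 3733 in KO, more than any other member. The genotypes overlapped, and the log2 fold change was -0.01 (SE 0.11, 95% interval -0.26 to 0.24; limma, BH-adjusted p = 0.995). Over the 10 members the 95% intervals lay within -0.45 and 0.60 on the log2 scale. Changes smaller than a gene's interval were not detectable with 2 libraries per genotype. Larger ones can also fail after adjustment over all genes, as Tas1r3 did with an interval of -4.92 to -2.17.

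**Figure D2:**
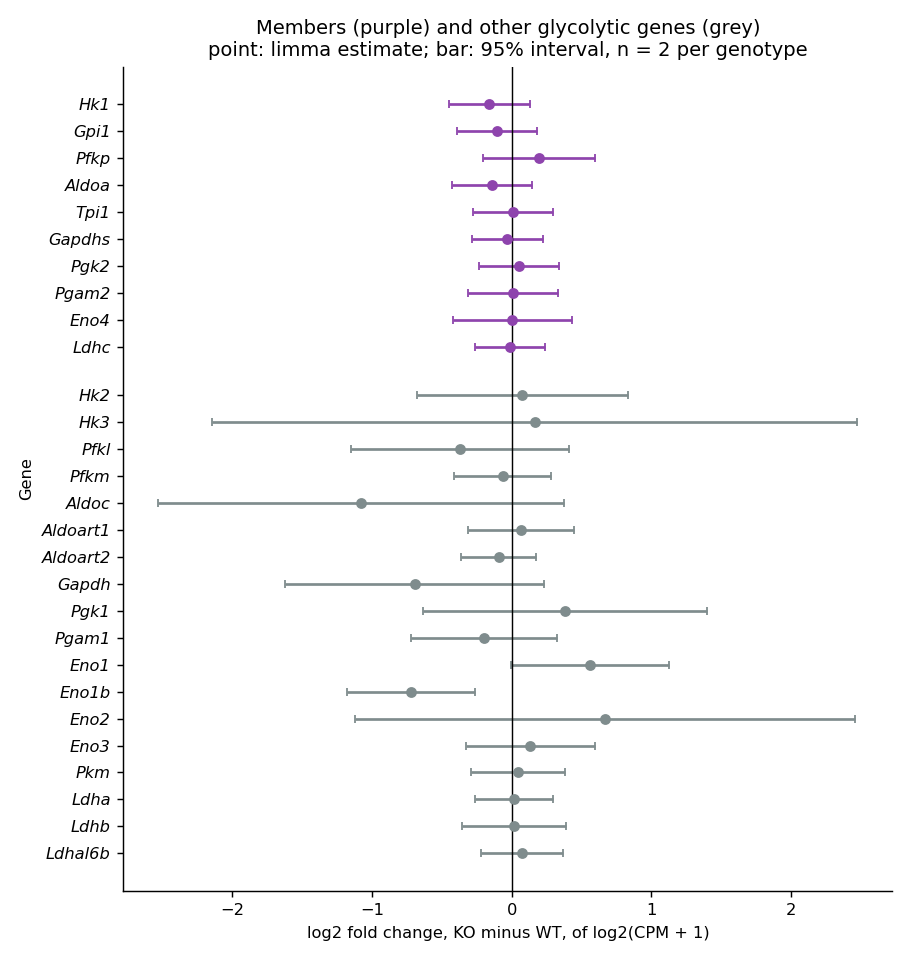
Log2 fold change (KO minus WT, on log2(CPM + 1)) with its 95% limma interval for the 10 members and for 18 other glycolytic genes, from 2 libraries per genotype. All member intervals include 0 and are narrower than those of low genes such as Hk3 and Aldoc; the Eno1b interval, -1.18 to -0.26, lies below 0 before adjustment.

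Levels of different genes were compared as CPM per kb of transcript. In WT the order was Ldhc (2765 ± 109 CPM per kb; SD, n = 2 here and below), Gapdhs (1603 ± 76.4), Pgam2 (804 ± 4.55) and Pgk2 (661 ± 24.1). Hk1 (422 ± 16.2), Aldoa (293 ± 0.804), Tpi1 (253 ± 0.571) and Gpi1 (179 ± 15.1) followed, and Eno4 (37.0 ± 5.53) and Pfkp (25.4 ± 2.31) were lowest. KO means stood in the same order, from 2742 ± 121 for Ldhc to 29.3 ± 4.48 for Pfkp. In WT no neighbours in this order overlapped. In KO, Pgam2 (715 and 917 CPM per kb) overlapped Pgk2 (628 and 745), and Aldoa (251 and 278) overlapped Tpi1 (266 and 245). Eno4 (40.8 and 33.5) lay above Pfkp (32.5 and 26.1) in KO by a small margin.

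For some steps with several genes a single gene supplied nearly all of the measured level. Gpi1 and Tpi1 were the only genes compared for their steps, so they have no share to describe. Over the 4 libraries, Gapdhs made up 99.3% to 99.7% of the level per kb of its step beside Gapdh, and Pgk2 had 98.3% to 99.4% beside the somatic Pgk1. Hk1 made up 97.5% to 97.8% of 5 hexokinase genes, and Pgam2 made up 96.0% to 97.8% beside Pgam1, the brain type mutase. Ldhc made up 69.1% to 71.5% of 4 lactate dehydrogenase genes. Other steps were shared among several genes. Aldoa made up 35.6% to 38.7% of the aldolase level, Pfkp 30.3% to 38.1% of the phosphofructokinase level and Eno4 5.79% to 8.54% of the enolase level. Of the 10 steps compared, which leave out pyruvate kinase, phosphofructokinase had the lowest level summed over its genes, 75.6 to 85.1 CPM per kb. Lactate dehydrogenase had the highest, 3752 to 4090 CPM per kb. Gapdh, Pgk1, Tpi1, Aldoa and Eno1 have near-identical copies elsewhere in the mouse genome, among which reads can be divided or lost, so their levels are uncertain.

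**Figure D3:**
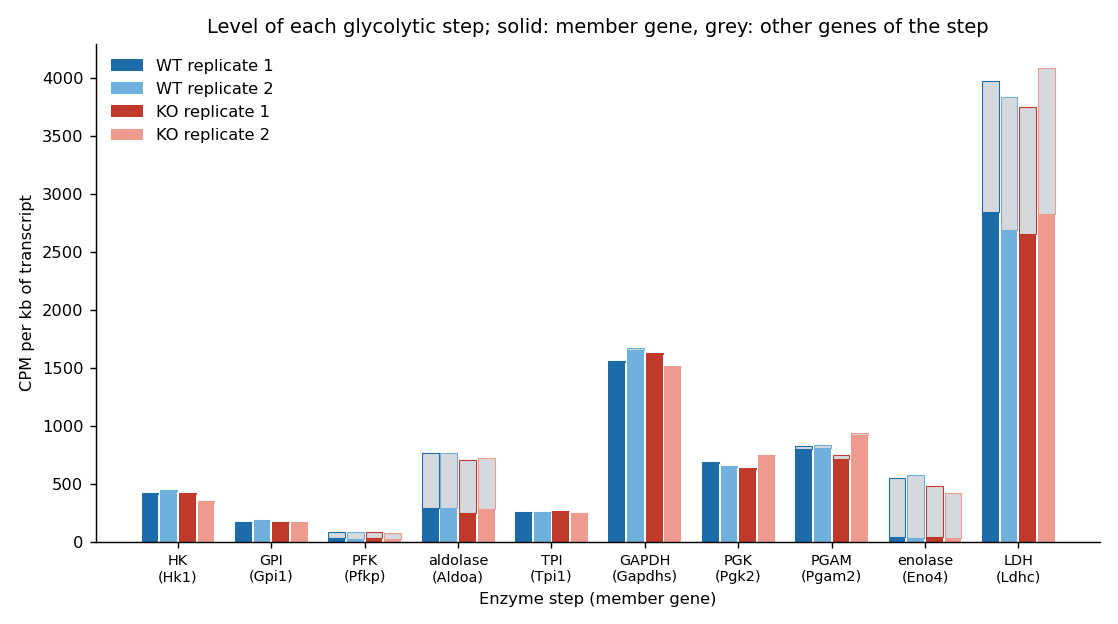
CPM per kb of transcript for each enzyme step with a member, in each library, drawn from 0. The coloured part of a bar is the member gene and the grey part the other measured genes of the step. The lactate dehydrogenase bars reach 3752 to 4090, and those of phosphofructokinase 75.6 to 85.1.

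The balance of germ cell and somatic forms was compared within libraries. The log2 ratio of Ldhc to Ldha was 1.97 and 1.93 in WT and 1.98 and 1.87 in KO. It moved by -0.03 between genotypes, less than the spread between libraries (exact permutation test, two-sided, p = 1). The log2 ratio of Pgk2 to Pgk1 was 6.69 and 6.81 in WT and 5.64 and 7.15 in KO, so the KO libraries again lay at both ends (exact permutation p = 1). Pgk1 had 10.5 and 9.12 CPM in WT against 20.04 and 8.36 in KO, from an estimated 18.0 and 16.5 reads in WT and 15 and 5 in KO. The log2 ratio of Gapdhs to Gapdh was 7.81 and 7.31 in WT and 8.54 and 8.06 in KO, without overlap (exact permutation p = 0.333). That difference of 0.74 ran from 0.48 to 0.99 with 1 library left out, 0.48 without WT replicate 2 and 0.50 without KO replicate 1. With 2 libraries per genotype 0.333 is the smallest p this test can give. Gapdh had 10.1 and 15.4 CPM in WT against 6.42 and 8.36 in KO (limma, BH-adjusted p = 0.950).

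Of 24 measured other glycolytic genes, 0 were called in either direction, and 2 had an unadjusted p under 0.05. The log2 fold change was above 0 for 12 and below 0 for 12, with a median of -0.02 beside -0.04 for all genes. The smallest p belonged to Eno1b, a copy of the alpha enolase gene Eno1 on another chromosome. Eno1b had 690.4 and 771 CPM in WT against 561 and 349.9 in KO, a log2 fold change of -0.72 with an SE of 0.20 (limma, BH-adjusted p = 0.950). Eno1 itself had 158 and 125 CPM in WT against 156 and 274 in KO, a log2 fold change of 0.56 with an SE of 0.25 (limma, BH-adjusted p = 0.950). KO replicate 2 had the lowest Eno1b and the highest Eno1 value. Their sum, which does not depend on how reads were divided between them, was 848 and 896 CPM in WT against 717 and 624 in KO. Eno1b passed with the replicate number as a block (limma, BH-adjusted p = 0.0471), with KO replicate 1 left out (log2 fold change -1.06, adjusted p = 3.44e-09) and with KO replicate 2 left out (-0.38, adjusted p = 0.0431). Those fits call 24, 954 and 413 genes. With either WT library left out its adjusted p was 1, and under the other alternatives 0.888 to 0.971. Eno1 passed with KO replicate 1 left out (log2 fold change 0.96, limma, BH-adjusted p = 1.65e-05) and not with KO replicate 2 left out (0.15, adjusted p = 0.661). Hkdc1, a hexokinase-like gene, was read an estimated 10.3 times over both WT libraries and 0 times over both KO libraries (limma, BH-adjusted p = 0.950). Its WT value was 1.31-fold higher than a floor of 3 reads over both KO libraries. That ratio leaves out the counting error of the WT reads, so it is no bound on the change.

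The remaining counterparts of the members, and Pkm, did not pass with all libraries (limma, BH-adjusted p of 0.950 or more). Among aldolases, the germ cell retrogenes Aldoart2 and Aldoart1 had 668 and 676 CPM and 144 and 137 CPM in WT, and 653 and 608 CPM and 131 and 166 CPM in KO. The brain form Aldoc had 6.87 and 12.6 CPM in WT against 8.01 and 1.67 in KO, a log2 fold change of -1.08. It passed with KO replicate 1 left out (log2 fold change -1.96, limma, BH-adjusted p = 0.0162) and was -0.20 with KO replicate 2 left out. Of the other phosphofructokinase subunits, Pfkm, the muscle form, had 139 and 138 CPM in WT against 140.3 and 125 in KO, and Pfkl, the liver form, 17.4 and 22.9 CPM and 11.9 and 19.4 CPM. Ldha had 959 and 929 CPM in WT against 891 and 1023 in KO, and Ldhb, the heart type subunit, stayed between 94.7 and 103 CPM in all 4 libraries. Pkm, for pyruvate kinase, a step without a member, had 308 and 354 CPM in WT against 372 and 311 in KO. Pgam1 had 51.1 and 54.8 CPM in WT against 55.0 and 38.4 in KO, and the muscle enolase gene Eno3 45.9 and 45.3 CPM and 46.8 and 53.5 CPM. Hk2, the insulin-regulated hexokinase, ranged from 19.0 to 31.8 CPM, Hk3 from 0 to 3.84 CPM and the neuronal Eno2 from 0.586 to 5.71 CPM.

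Pathways that branch from glycolysis held 0 called genes as well, in 4 lists of 9, 14, 11 and 17 measured genes (limma, BH-adjusted p of 0.950 or more for each). Among 9 regulators of glycolysis the median log2 fold change was -0.14, with 4 above and 5 below 0. Tigar, a phosphatase that diverts glucose to the pentose phosphate pathway, had 20.9 and 25.0 CPM in WT against 13.7 and 16.8 in KO. Pfkfb4, a testis-rich bifunctional regulator of phosphofructokinase, had 67.8 and 80.6 CPM in WT against 66.6 and 51.8 in KO. Both genes had all KO values below WT, as 19.2% of all genes did. Mlxipl and Mlxip, for glucose-sensing transcription factors, had 9.59 and 11.1 CPM and 19.8 and 25.5 CPM in WT, and 9.75 and 7.80 CPM and 29.4 and 21.1 CPM in KO. The 14 genes of pyruvate dehydrogenase, its kinases and pyruvate import had a median of 0.03, with 8 above and 6 below 0. Pdk1, a kinase that shuts the complex off, had 14.8 and 15.8 CPM in WT against 5.36 and 10.03 in KO, and was the only gene of these 4 lists with an unadjusted p under 0.05 by limma. Its log2 fold change was -0.96, and -1.36 with KO replicate 2 left out, which passed (limma, BH-adjusted p = 0.0477), against -0.56 with KO replicate 1 left out. Dld, the shared dehydrogenase subunit, had 48.9 and 45.4 CPM in WT against 63.6 and 56.9 in KO. Pdhx, which binds Dld into the complex, had 64.6 and 71.9 CPM in WT against 56.1 and 58.2 in KO, and Mpc1, a subunit of the mitochondrial pyruvate carrier, ranged from 12.5 to 18.3 CPM.

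Of 11 pentose phosphate genes, 4 lay above and 7 below 0, with a median of -0.13. Those with the smallest p were H6pd, the reticulum form of the entry enzyme (13.5 and 16.2 CPM in WT, 7.95 and 10.6 in KO), and Pgls, the lactonase (63.6 and 56.9 CPM in WT, 46.8 and 50.1 in KO). Pgd, the second dehydrogenase of the pathway, had 25.0 and 21.8 CPM in WT against 11.3 and 21.7 in KO. Tkt, for transketolase, had 27.3 and 28.2 CPM in WT but 39.7 and 8.36 CPM in KO, so its KO libraries enclosed WT. With KO replicate 1 left out its log2 fold change was -1.62 and passed (limma, BH-adjusted p = 0.00056), and with KO replicate 2 left out it was 0.50. Of 17 genes of gluconeogenesis, glycerol phosphate and glycogen, 9 lay above and 8 below 0, with a median of 0.02. Among them Gpd2, the mitochondrial glycerol phosphate dehydrogenase, had 535 and 533 CPM in WT against 583 and 585 in KO, and the germ cell glycerol kinase gene Gk2 had 620.03 and 547 CPM in WT against 583 and 687 in KO. Pgm2, a phosphoglucomutase gene, ranged from 0 to 3.06 CPM, and Gys1, for glycogen synthase, from 1.73 to 7.69 CPM.

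The 17 member transcripts were tested singly among 28243 transcripts. None was called (limma, BH over transcripts), as 0.0% of all transcripts were, and 1 of 17 had an unadjusted p under 0.05, against 6.26% of all. Reads were divided among the transcripts of a gene before deposit, and for some members that division differed widely between libraries while the gene's sum did not. The clearest case was Gapdhs, whose promoters and starts are the near copies printed above. The transcript from the upstream start, NM_001290631, took 25.6% and 25.2% of the gene in WT, 25.5% in KO replicate 1 and 0.833% in KO replicate 2. In CPM this was 584 and 614 in WT, 606 in KO replicate 1 and 18.6 in KO replicate 2, from an estimated 1004, 1109, 454 and 11.1 reads. The transcript from the downstream start, NM_008085, had 1696 and 1825 CPM in WT against 1775 and 2214 in KO. KO replicate 2 alone departed in this share, while its sum of both transcripts, 2232.5 CPM, lay next to the 2279.9 CPM of WT replicate 1. For NM_001290631 the log2 fold change was -2.46 (SE 1.59, 95% interval -6.58 to 1.66; limma, BH-adjusted p = 0.916). In the GENCODE M21 models paired with these IDs, which differ in length from the listed ones, the transcripts share a run of 1258 bases. Of windows of 50 bases, 141 of 1408 occur only in the upstream model and 52 of 1319 only in the downstream model. The part of this likeness in the division of reads was not tested.

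**Figure D4:**
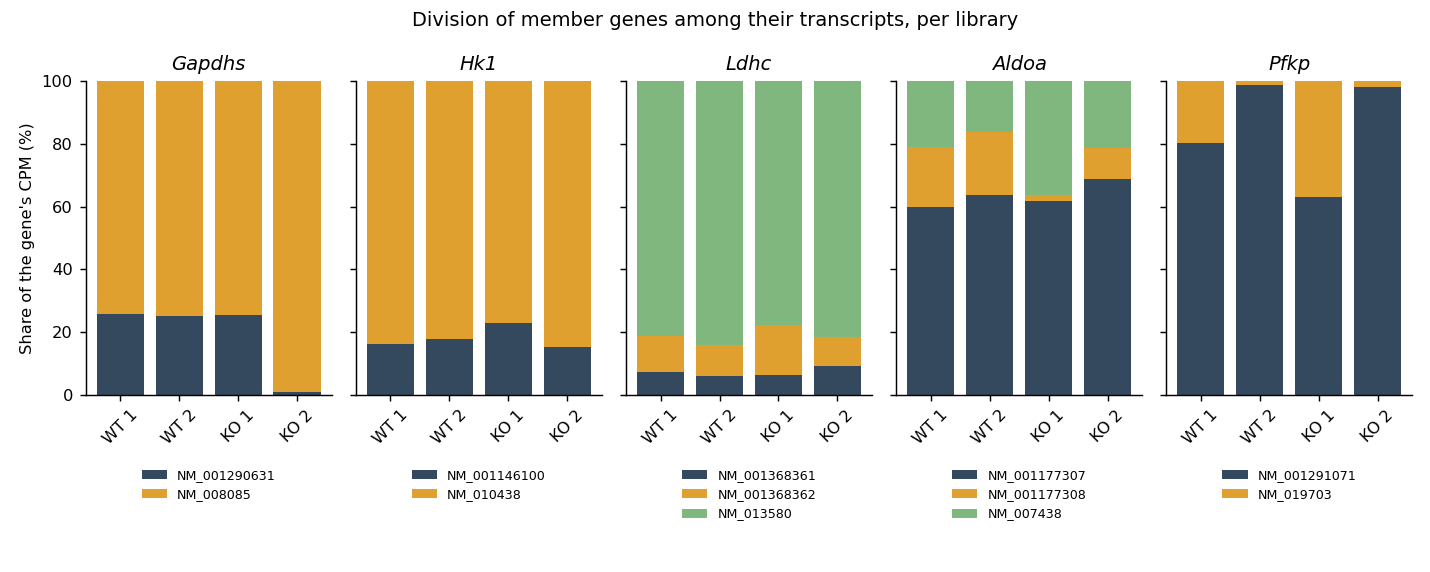
Share of each gene's CPM (%) assigned to each listed transcript, per library, for the 5 members with several transcripts. The Gapdhs share of NM_001290631 is 25.2% to 25.6% in 3 libraries and 0.833% in KO replicate 2; the Pfkp and Aldoa shares also vary between libraries of a genotype.

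Hk1 was assigned mainly to NM_010438, which begins 39487 bases upstream of NM_001146100, at the start whose window holds TGACATCA. NM_010438 had 1416 and 1463 CPM in WT against 1313 and 1199 in KO, with both KO values below WT, as for 3 of the 17 member transcripts, all lower in KO. Of all transcripts 34.5% did not overlap, 19.4% in this direction. Its log2 fold change of -0.20 (SE 0.09, 95% interval -0.43 to 0.03) did not pass (limma, BH-adjusted p = 0.857). NM_001146100 had 270.3 and 318 CPM in WT against 389 and 214 in KO, or 15.1% to 22.8% of the gene. In Ldhc, NM_013580 held 77.8% to 84.1% of the gene in every library, with 3047 and 2979 CPM in WT against 2732 and 3051 in KO. Its other transcripts held 5.86% to 9.22% (NM_001368361, from the same start) and 9.03% to 15.7% (NM_001368362, from a start 224 bases downstream).

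Aldoa was divided among 3 transcripts. NM_001177308, from the start furthest upstream, had 87.2 and 92.2 CPM in WT against 8.17 and 42.3 in KO. Both KO values were lower and differed widely from each other, resting on an estimated 6.12 and 25.3 reads. For this transcript the log2 fold change was -2.19 (SE 0.75, 95% interval -4.14 to -0.23; limma, BH-adjusted p = 0.746), and this was the member transcript with an unadjusted p under 0.05. NM_007438, from a start 1193 bases downstream, had 94.9 and 72.8 CPM in WT against 141 and 92.8 in KO, and was highest where NM_001177308 was lowest. NM_001177307, from a start 1269 bases downstream of the first, had 272 and 288 CPM in WT against 240.3 and 297 in KO. Pfkp has 2 listed transcripts with the same ends and the same length of 4033 bases. NM_019703 took 19.6% and 1.39% of the gene in WT and 36.9% and 1.88% in KO. The difference thus lay between libraries of each genotype and not between genotypes.

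Genes whose profile over the 4 libraries was most like that of the germ cell forms were sought among 2045 genes of at least 100 CPM, by the Euclidean distance of centred log2(CPM + 1) values. For Pgk2 they were Ube2d3, a ubiquitin conjugating enzyme gene (distance 0.0262), and Cfl1, for cofilin (0.0297). For Gapdhs they were Foxm1, a forkhead factor gene (0.0207), and Sugp2 (0.0248), and for Ldhc the calmodulin gene Calm3 (0.0181) and Cyhr1 (0.0239). With 4 points, small distances arise readily among so many genes, and these are a description.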

How the data were processed

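Total RNA of 4 testis libraries was sequenced with the Ion Total RNA-Seq Kit, per the labels' protocols. STAR, Partek and mm39 are named in the submitters' processing notes, without roles or versions. The authors deposited CPM values for 29342 transcripts per library. Each deposited column sums to 1000000, and low values are multiples of a step common to transcripts of any length, taken as the CPM of 1 read (0.582, 0.553, 1.34 and 1.67 in WT replicates 1 and 2 and KO replicates 1 and 2). Between 20.4% and 45.5% of genes had whole reads within 0.01, so no count model was fitted. The end coordinate in the tables lies 1 base past the last base and was corrected.

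Values were summed per symbol, keeping 10 symbols on several chromosomes apart. Genotypes (KO minus WT) were tested with limma 3.58.1 (R 4.3.3). The input was log2(CPM + 1) of all features with a mean of 1 CPM or more, the prior variance followed the mean, and p-values were BH adjusted over all features. Fold changes on this scale understate changes of low genes. Members, lists and named genes (all members, their counterparts, up to 4 genes per list by p, and the 2 nearest profiles of Pgk2, Gapdhs and Ldhc) were chosen with earlier results of these data known. The alternatives were pseudocounts of 0.1 and 5, no filter, a minimum mean of 5 CPM, scaling by trimmed mean of M values, quantile normalization, no trend, the replicate block, each library left out, and the highest transcript per gene. Results under the alternatives are given for the named genes and Tas1r3, but not for the nearest profiles. The fitting code was tested on simulated data. Figures were drawn with matplotlib 3.10.9.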

Additional observations from a re-analysis of the deposited data

How the results depend on the processing

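Between genotypes, 1 gene, not a member, was called by limma, against 0 with the highest transcript per gene, without a trend or with a pseudocount of 0.1 CPM, and 24 with the replicate number as a block. Leaving out 1 library gave 0 to 954 genes: 0 without either WT library, 954 without KO replicate 1 and 413 when KO replicate 2 was dropped. The remaining library of that genotype is then assumed to vary like the other pair. The cause was not tested. Transcript calls stayed at 0 in every alternative. Same-numbered libraries did not deviate together (correlation -0.00585 over genes), so the numbers are not taken as pairs, and with the block 0 members were called. Members called ranged from 0 to 1 when a library was left out; the 1 was Hk1 without KO replicate 1. The median member log2 fold change ranged from -0.057 to 0.0066 over these fits. With 1 library left out, the genotype difference of the log2 ratio ran from 0.48 to 0.99 for Gapdhs to Gapdh. It ran from -1.11 to 0.40 for Pgk2 to Pgk1 and from -0.082 to 0.029 for Ldhc to Ldha; the first changed sign without KO replicate 1, the second without KO replicate 2. Of 580 values of 45 named genes, 534 kept side and sign, 11 (of Tas1r3, Hk1, Aldoc, Eno1, Eno1b, Pdk1 and Tkt) passed the threshold anew and 35 changed sign. With the highest transcript per gene the log2 fold change was 0.17 for Gapdhs, 0.020 for Gapdh, -0.015 for Ldhb, 0.59 for Pfkm, 0.45 for Aldoc, -0.23 for Pkm and 0.42 for Pfkfb4. With quantile normalization it was 0.10 for Ldhc. With a library left out, members that changed sign ranged over -0.073 to 0.17 (Pgk2), -0.081 to 0.016 (Gapdhs), -0.055 to 0.034 (Ldhc), -0.048 to 0.069 (Tpi1), -0.17 to 0.19 (Pgam2) and -0.15 to 0.16 (Eno4). Other genes ranged over -0.20 to 0.97 (Pgk1), -0.084 to 0.12 (Ldha), -0.040 to 0.077 (Ldhb), -0.25 to 0.40 (Hk2), -0.97 to 1.30 (Hk3), -0.14 to 0.016 (Pfkm), -0.10 to 0.24 (Aldoart1), -0.45 to 0.054 (Pgam1), -0.093 to 1.43 (Eno2), -0.086 to 0.17 (Pkm), -0.089 to 0.37 (Mlxip) and -1.62 to 0.50 (Tkt). Among the members depth limits Pfkp and Eno4 most. Hk3, Eno2 and Hkdc1 rest on a few reads, as Gapdh does in KO.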
